A study of Mus musculus with 12 samples.

Results

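The gasdermins are a family of proteins that open pores in membranes, and 8 of the mouse genes that encode them were followed in alopecic mouse skin treated with topical baricitinib: Gsdma, Gsdma2, Gsdma3, Gsdmc, Gsdmc2, Gsdmc3, Gsdmc4 and Gsdmd. Members were all probe sets of the array whose annotated symbols were among these 8, alone or together, which gave 11 of the 45037 probe sets tested. The family was picked with results of these same arrays known, so the gasdermin values are a description, and no p-value is given for them. Gsdma had 2 probe sets, Gsdma2 had 5, Gsdmc2 had 1 of its own and Gsdmd had 1. A further probe set was annotated to both Gsdmc2 and Gsdmc and another to both Gsdmc2 and Gsdmc4, so that their signal cannot be given to a single gene. No probe set carried the symbol Gsdma3 or Gsdmc3. In all, 6 of the 8 genes were covered, 4 of them by a probe set of their own.

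Skin of 6 C3H/HeJ mice was measured, 3 treated topically with baricitinib, an inhibitor of the Janus kinases JAK1 and JAK2, and 3 with vehicle control. All of the animals had received a graft of alopecic skin from C3H/HeJ donors and had gone on to near complete alopecia before treatment began, which makes them a model of established alopecia areata rather than of its onset. By the methods, skin was sampled at week 0 and at week 12. The arrays form 4 groups of 3: baricitinib week 12, baricitinib week 0, vehicle week 12 and vehicle week 0. That the arrays of a treatment at both weeks come from the same mice was read from the labels, which do not state it outright. Values are log2 signals normalized by RMA, so a difference of 1 is a doubling, and a level can be compared between groups for 1 probe set but not between probe sets.

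A gasdermin is made as an inactive protein. When a protease cuts the linker between its front and back parts, the front part is freed to assemble into a pore through which the cell can release interleukins or rupture, a death called pyroptosis. Gsdmd serves this purpose in macrophages and many other cells downstream of the inflammasomes, whereas the Gsdma genes are best known from skin and upper gut epithelium and the Gsdmc genes from skin, gut and other epithelia. In mice, mutations of Gsdma3 cause hair loss. In the RefSeq annotation of the mouse genome (GRCm38.p6), Gsdma3, Gsdma2 and Gsdma are 3 neighbouring genes, and the 4 Gsdmc genes lie in another cluster together with 3 pseudogenes named for them (Gsdmcl1, Gsdmcl2 and Gsdmcl-ps). The members of a cluster are close copies of each other, and cross-hybridization between them was not measured here.

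The medians of the 12 arrays lay between 5.16 and 5.35. Correlated with the other arrays over all probe sets, baricitinib week 0 replicate 2 had the lowest mean r (0.941) and baricitinib week 12 replicate 1 the next lowest (0.946). These 2 arrays were left out in a repeat chosen after seeing the data. In it 2 gasdermin probe sets were called between baricitinib week 12 and baricitinib week 0, and 4 between baricitinib week 12 and vehicle week 12, against 1 and 3 with all 12 arrays. Calls over all probe sets also rose in the repeat, from 557 to 860 and from 261 to 1008. The keratinocyte markers behind the label of skin were present in every group. The summed log2 level of the 6 suprabasal markers (Krt1, Krt10 and others) ranged from 14.71 to 14.90 at baricitinib week 12, from 14.60 to 14.75 at baricitinib week 0, from 14.68 to 15.03 at vehicle week 12 and from 14.25 to 14.84 at vehicle week 0. In a biopsy of whole skin, fewer cells of a type and less RNA per cell cannot be told apart.

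**Figure D1:**
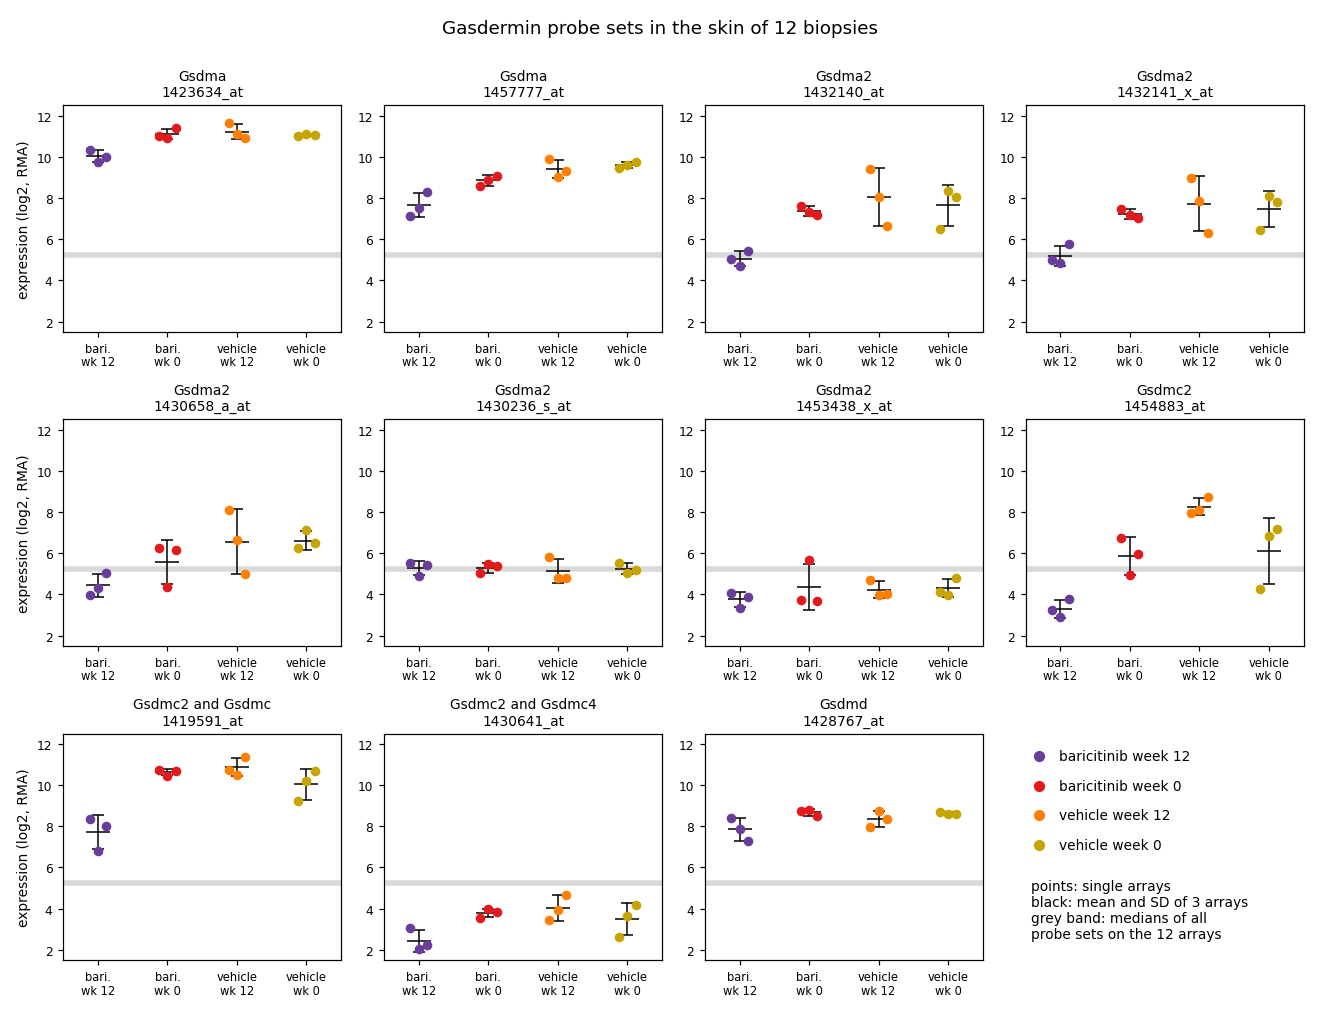
Expression of the 11 gasdermin probe sets (y axis, log2 RMA signal) on single arrays of the 4 groups (points), with the mean and SD of 3 arrays (black) and the medians of all probe sets on the 12 arrays (grey band). In 7 panels every baricitinib week 12 array lies below every baricitinib week 0 array and every vehicle week 12 array. The means differ most in Gsdmc2 and in the probe set shared by Gsdmc2 and Gsdmc.

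Most gasdermin probe sets read lowest after 12 weeks of baricitinib. Between baricitinib week 12 and baricitinib week 0, all 11 probe sets had a difference below 0, with a median of -1.20 on the log2 scale, against a median of 0.00 over all probe sets tested. For 8 of the 11, the 3 arrays of baricitinib week 12 all lay below the 3 arrays of baricitinib week 0, as they did for 7.91% of all probe sets. In the limma fit over all probe sets, 1 of the 11 was called lower at an adjusted p under 0.05 and 0 were called higher. The background of that fit was 0.875% of probe sets called lower and 0.362% called higher. Between baricitinib week 12 and vehicle week 12, 10 of the 11 differences were below 0, with a median of -1.76, against 0.01 over all probe sets tested. The arrays did not overlap for 7 of them, all lower with baricitinib, against 9.69% of all probe sets, 3 were called lower, against a background of 0.429%, and 0 were called higher, against 0.151%. Since the family was chosen on these contrasts, nothing is read from the counts. The baricitinib week 12 arrays enter both comparisons, so these are not independent of each other.

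The widest differences belonged to the Gsdmc cluster. In mouse gut epithelium its genes are induced by the type 2 cytokines interleukin 4 and interleukin 13, and human GSDMC is cut by caspase-8. The probe set shared by Gsdmc2 and Gsdmc (1419591_at) read 8.35, 6.80 and 7.99 on the baricitinib week 12 arrays. It read 10.71, 10.45 and 10.70 at baricitinib week 0, 10.74, 10.49 and 11.34 at vehicle week 12, and 9.23, 10.20 and 10.70 at vehicle week 0. The baricitinib week 12 arrays stood below all 9 others, while the other 3 groups overlapped. This probe set fell with baricitinib, by 2.90 between baricitinib week 12 and baricitinib week 0 (SE 0.44, 95% interval -3.87 to -1.94), a 7.48-fold lower level. Against vehicle week 12 it was lower by a log2 difference of -3.14 (SE 0.44, 95% interval -4.10 to -2.17), or 8.81-fold. Both calls of the fit were lost when only the groups compared were fitted. The first was also lost without baricitinib week 0 replicate 3 (difference -2.86), and the second without vehicle week 12 replicate 1 (-3.20) or replicate 3 (-2.90).

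Gsdmc2 by its own probe set (1454883_at) had the largest difference of the family between the treatments. It read 3.23, 2.91 and 3.76 at baricitinib week 12, 6.72, 4.92 and 5.95 at baricitinib week 0, 7.95, 8.13 and 8.73 at vehicle week 12, and 4.26, 6.86 and 7.19 at vehicle week 0. Vehicle week 12 held the highest arrays and baricitinib week 12 the lowest, with the 2 groups of week 0 overlapping each other in between. Gsdmc2 was lower by -4.97 at baricitinib week 12 than at vehicle week 12 (SE 0.68, 95% interval -6.46 to -3.48), a 31.3-fold difference on the fitted scale. The call of this difference was lost without baricitinib week 12 replicate 2 (-4.77), vehicle week 12 replicate 1 (-5.13) or vehicle week 12 replicate 2 (-5.04). Against baricitinib week 0 the difference was -2.57 (SE 0.68, 95% interval -4.05 to -1.08), which was not called, although the arrays did not overlap. It was called without vehicle week 0 replicate 1, at the same value. The 3 baricitinib week 12 values fell short of their arrays' median, and background was not measured, so the sizes of these folds are not exact.

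The probe set shared by Gsdmc2 and Gsdmc4 (1430641_at) was dim, under the array median on all 12 arrays. It read 3.05, 2.02 and 2.25 at baricitinib week 12, 3.54, 3.96 and 3.84 at baricitinib week 0, 3.43, 3.93 and 4.68 at vehicle week 12, and 2.63, 3.63 and 4.17 at vehicle week 0. Its baricitinib week 12 arrays were below those of baricitinib week 0 (difference -1.34, SE 0.43) and of vehicle week 12 (-1.58, SE 0.43), and neither difference was called. Over the 12 arrays, which share the groups and are thus not independent points, the Gsdmc2 and Gsdmc probe set correlated with the Gsdmc2 and Gsdmc4 probe set at r = 0.913 and with the probe set of Gsdmc2 at r = 0.877. The probe sets of the 3 Gsdmc pseudogenes, 6 in number, were also dim and did not share the pattern, with differences between -0.58 and 0.18 for baricitinib week 12 against week 0, and 0 called.

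**Figure D2:**
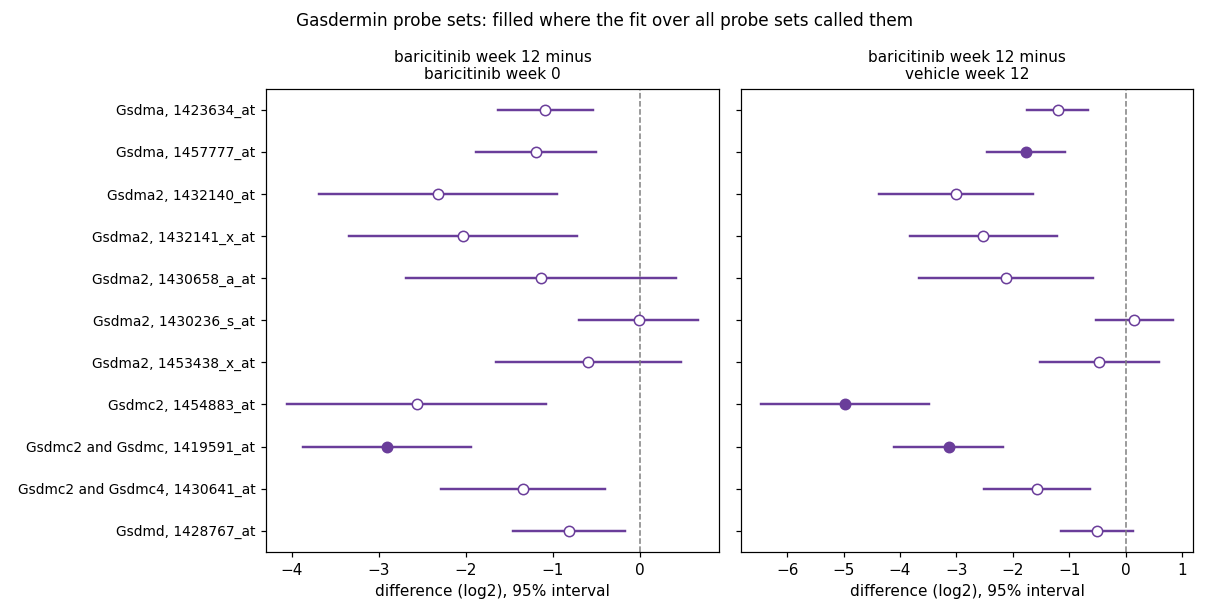
Log2 difference of each gasdermin probe set (x axis) between baricitinib week 12 and baricitinib week 0 (left) and between baricitinib week 12 and vehicle week 12 (right), with its 95% interval. Filled points were called in the limma fit over all probe sets: 1 on the left, the Gsdmc2 and Gsdmc probe set at -2.90, and 3 on the right, of which Gsdmc2 at -4.97 lies farthest from 0.

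Gsdma is expressed by differentiating keratinocytes, and its human counterpart is known to be cut by a protease of group A streptococci. The brighter of its probe sets (1423634_at) read 10.34, 9.76 and 9.98 at baricitinib week 12. It read 11.02, 10.94 and 11.39 at baricitinib week 0, 11.64, 11.11 and 10.94 at vehicle week 12, and 11.03, 11.11 and 11.05 at vehicle week 0. The baricitinib week 12 arrays were below all 9 others, and the other 3 groups overlapped with means of 11.12, 11.23 and 11.06. The difference was -1.09 against baricitinib week 0 (SE 0.25, 95% interval -1.63 to -0.55) and -1.20 against vehicle week 12 (SE 0.25, 95% interval -1.75 to -0.66). Neither was called, and both were called without baricitinib week 12 replicate 1 (-1.24 and -1.36).

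The other Gsdma probe set (1457777_at) read 7.15, 7.52 and 8.29 at baricitinib week 12, 8.59, 8.89 and 9.08 at baricitinib week 0, 9.89, 9.04 and 9.30 at vehicle week 12, and 9.48, 9.59 and 9.76 at vehicle week 0. It fell by 1.76 between baricitinib week 12 and vehicle week 12 (SE 0.32, 95% interval -2.45 to -1.07), a 3.39-fold lower level, while the difference of -1.20 against baricitinib week 0 (SE 0.32) was not called. The call was lost when only the groups compared were fitted, and without any 1 of 7 arrays: vehicle week 12 replicate 1 (-1.52), replicate 2 (-1.94) or replicate 3 (-1.81), baricitinib week 12 replicate 2 (-1.69), baricitinib week 0 replicate 1 or 3, or vehicle week 0 replicate 2 (-1.76 each). Both Gsdma probe sets thus differed in the same direction, and they correlated at r = 0.817 over the 12 arrays. This probe set was also the only one of the family with arrays that did not overlap between the treatments at week 0, with a difference of -0.76 between baricitinib week 0 and vehicle week 0 (SE 0.32, not called). Non-overlap in that direction was found for 2.73% of all probe sets.

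Gsdma2 is a close copy of Gsdma that is found in the mouse and not in man. Its brightest probe set (1432140_at) read 5.03, 4.71 and 5.42 at baricitinib week 12, 7.61, 7.35 and 7.16 at baricitinib week 0, 9.43, 8.07 and 6.64 at vehicle week 12, and 6.50, 8.36 and 8.07 at vehicle week 0. The baricitinib week 12 arrays were again below all others, while the vehicle arrays were spread over a wide range, with an SD of 1.39 at vehicle week 12 and 1.00 at vehicle week 0. The difference was -2.32 against baricitinib week 0 (SE 0.62, 95% interval -3.69 to -0.96) and against vehicle week 12 it was 7.99-fold lower (SE 0.62 in log2, 95% interval -4.36 to -1.63), and neither was called. A call of the second was gained without vehicle week 0 replicate 1, at the same value, or vehicle week 12 replicate 3 (-3.70), and that of the first when only the groups compared were fitted.

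The 5 Gsdma2 probe sets did not behave alike. The next brightest (1432141_x_at) correlated with the brightest at r = 0.995 and had differences of -2.03 against baricitinib week 0 and -2.52 against vehicle week 12. Another (1430658_a_at) had -1.14 and -2.12, and its arrays overlapped in both comparisons. The remaining probe sets were close to or under the array medians. Of these, 1430236_s_at had -0.02 and 0.16, and 1453438_x_at, under the median on 11 of the 12 arrays, had -0.60 and -0.46. Averaged over the 5 probe sets, Gsdma2 had -1.22 against baricitinib week 0 and -1.59 against vehicle week 12.

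Gsdmd is the gasdermin that inflammasomes act through, and it is cut by caspase-1 and caspase-11. It read 8.39, 7.89 and 7.28 at baricitinib week 12 (1428767_at), 8.74, 8.80 and 8.48 at baricitinib week 0, 7.96, 8.73 and 8.37 at vehicle week 12, and 8.72, 8.61 and 8.59 at vehicle week 0. The baricitinib week 12 arrays lay below those of baricitinib week 0 and overlapped with those of vehicle week 12. The difference was -0.82 against baricitinib week 0 (SE 0.29, 95% interval -1.46 to -0.18) and -0.50 against vehicle week 12 (SE 0.29, 95% interval -1.14 to 0.14), and neither was called. Gsdmd had the smallest difference among the probe sets that were above the array median on all arrays. Its correlation with the probe sets of the Gsdma and Gsdmc genes ran from 0.325 to 0.598, leaving out Gsdma2, whereas those of the Gsdma and Gsdmc genes among each other ran from 0.561 to 0.913.

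The labels give the same 3 numbers at both weeks within a treatment, and the methods have 3 mice a treatment, so arrays of the same number were read as the same mouse and the change was also taken within it. The deviations of such arrays from their group means correlated below 0 for 3 of the 6 pairs (r between -0.51 and 0.49). The 3 baricitinib mice all had lower values at week 12 for 9 of the 11 probe sets. The share of all probe sets that did so was not counted. Since the family was chosen on these arrays, nothing is read from this count. The Gsdmc2 and Gsdmc probe set changed by -2.36, -3.65 and -2.71 in the baricitinib mice, and by 1.51, 0.29 and 0.64 in the vehicle mice. Gsdmc2 changed by -3.49, -2.01 and -2.19 in the baricitinib mice, and by 3.69, 1.27 and 1.54 in the vehicle mice. The probe set of Gsdmc2 and Gsdmc4 changed by -0.50, -1.94 and -1.59 in the baricitinib mice, and by 0.80, 0.31 and 0.51 in the vehicle mice. All 3 probe sets of the Gsdmc cluster thus went down in every baricitinib mouse and up in every vehicle mouse, a pattern held by 731 of the 45037 probe sets, or 1.62%. All 3 carry the symbol Gsdmc2, so they may read 1 gene and do not show a pattern of the whole cluster. The Gsdma and Gsdma2 probe sets had no common direction in the vehicle mice. The brightest Gsdma2 probe set, for example, changed by -2.59, -2.64 and -1.75 in the baricitinib mice and by 2.93, -0.29 and -1.42 in the vehicle mice. Gsdmd changed by -0.35, -0.92 and -1.20 in the baricitinib mice and by -0.75, 0.12 and -0.22 in the vehicle mice.

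**Figure D3:**
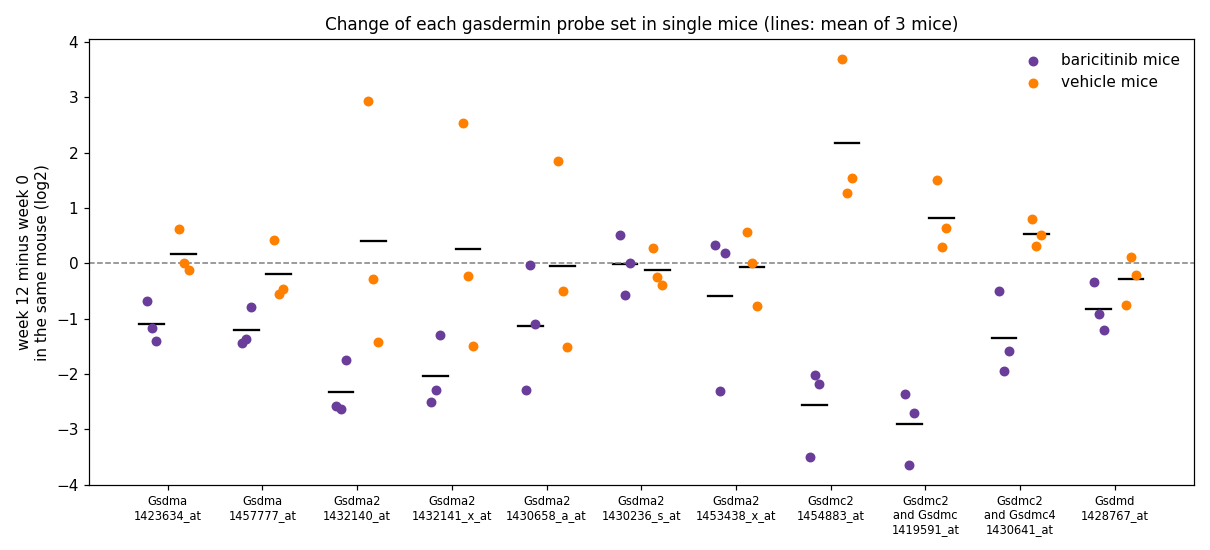
Change of each gasdermin probe set within single mice (y axis, week 12 minus week 0, log2) in the 3 baricitinib mice and the 3 vehicle mice, with the mean of each treatment (line). Arrays of the same number were read as the same mouse. The 3 probe sets of the Gsdmc cluster, which all carry the symbol Gsdmc2, are below 0 in every baricitinib mouse and above 0 in every vehicle mouse.

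In vehicle skin the mean of each of these 3 probe sets was thus higher at week 12 than at week 0. The difference was 2.17 for Gsdmc2 (SE 0.68, 95% interval 0.68 to 3.66). It was 0.81 for the Gsdmc2 and Gsdmc probe set (SE 0.44, 95% interval -0.15 to 1.78). For that of Gsdmc2 and Gsdmc4 it was 0.54 (SE 0.43, 95% interval -0.40 to 1.48). The arrays of these last probe sets overlapped between the weeks. None of the 11 probe sets was called in this comparison, nor was any of the 45037 probe sets (0%), although before adjustment 557 passed 0.05 upward and 551 downward. Gsdmc2 was the one member whose arrays did not overlap between vehicle week 12 and vehicle week 0, which happened upward for 4.68% of all probe sets. The other members had differences between -0.29 and 0.41.

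The difference between the change with baricitinib and the change with vehicle was fitted as well. It was -4.73 for Gsdmc2 (SE 0.96, 95% interval -6.84 to -2.63), -3.72 for the Gsdmc2 and Gsdmc probe set (SE 0.62, 95% interval -5.08 to -2.35), -2.73 for the brightest Gsdma2 probe set (SE 0.88), -1.26 for the brighter Gsdma probe set (SE 0.35) and -0.53 for Gsdmd (SE 0.41). None of the 11 was called, and none of all probe sets was (0%), while before adjustment 1359 passed 0.05 upward and 1466 downward. Without baricitinib week 12 replicate 1, the Gsdmc2 and Gsdmc probe set was called (-4.04). Between baricitinib week 0 and vehicle week 0 no member was called and none of all probe sets was (0%), although 198 had an unadjusted p under 0.05 upward and 310 downward. The median difference of the members was 0.03, with a range from -1.04 to 0.58. The lowest was that of the Gsdma2 probe set 1430658_a_at (SE 0.71).

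Gsdme, a further gasdermin outside the 8, is cut by caspase-3 and by granzyme B. Its brighter probe set read 6.46, 8.15 and 7.83 at baricitinib week 12, 7.95, 7.08 and 8.13 at baricitinib week 0, and 7.60, 7.52 and 7.77 at vehicle week 12, with the groups overlapping. At vehicle week 0 it averaged 7.66 ± 0.43 (SD, n = 3). The difference was -0.24 between baricitinib week 12 and baricitinib week 0 (95% interval -1.18 to 0.69, limma adjusted p = 0.888) and -0.15 between baricitinib week 12 and vehicle week 12 (95% interval -1.09 to 0.78, adjusted p = 0.968). The arrays of the dimmer probe set did not overlap in either comparison, all lower at baricitinib week 12, and its differences of -0.81 and -0.67 were not called (limma adjusted p = 0.327 and 0.504). Pjvk, the last of the family, had no probe set of its own name.

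Genes that act on gasdermins were read from the same fit, by lists that were also written with earlier results known. Of the proteases that cut gasdermins, 8 of 10 were measured and 2 were called lower at baricitinib week 12 in both comparisons, both of them granzymes of cytotoxic lymphocytes. Granzyme A, which cuts human GSDMB, a gasdermin that mice lack, read 3.55, 6.48 and 2.47 at baricitinib week 12, 9.66, 8.71 and 10.40 at baricitinib week 0 and 10.67, 9.86 and 8.40 at vehicle week 12. Gzma fell by 5.42 against baricitinib week 0 (limma adjusted p = 0.0176) and by 5.48 against vehicle week 12 (adjusted p = 0.0247). Gzmb, which encodes granzyme B, fell by 5.05 (limma adjusted p = 0.00128) and by 3.66 (adjusted p = 0.0109) in the same comparisons. With a fixed block for the mouse, Gzma lost its call against baricitinib week 0 (adjusted p = 0.063) and Gzmb kept it (adjusted p = 0.0071). The Gzma calls were also lost without any 1 of 3 arrays each (baricitinib week 0 replicates 1 and 3 and baricitinib week 12 replicate 3 for the first, baricitinib week 12 replicate 3 and vehicle week 12 replicates 1 and 2 for the second, adjusted p between 0.0623 and 0.113), and the second Gzmb call without vehicle week 12 replicate 1 (-3.35, adjusted p = 0.0589).

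The caspases that cut Gsdmd showed no such difference. Between baricitinib week 12 and baricitinib week 0, Casp1 differed by -0.15 (95% interval -0.60 to 0.29, limma adjusted p = 0.84), Casp4, which encodes caspase-11, by 0.24 (95% interval -0.32 to 0.79, adjusted p = 0.787) and Casp8 by -0.33 (95% interval -0.79 to 0.14, adjusted p = 0.612). Elane and Ctsg, proteases of neutrophils that can also cut Gsdmd, had -0.14 and -0.17. Of the inflammasome sensors and adaptors, 9 of 13 were measured and 0 were called in either comparison, with a median of -0.62 against baricitinib week 0 and -0.16 against vehicle week 12. At an unadjusted p, limma gave 0.0326 for Nlrp3 (-0.74), 0.00576 for Aim2 (-0.89), 0.0246 for Naip5 (-1.23) and 0.00113 for Naip6 (-1.90) against baricitinib week 0, so that 4 of the 9 were below 0.05 before adjustment, all lower, as were 2 of the 9 against vehicle week 12. Over all 45037 probe sets, 2726 were lower at that threshold against baricitinib week 0 and 2705 against vehicle week 12.

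The interleukin 1 family, part of which leaves the cell through gasdermin pores, moved in both directions. Of 13 measured of 15, 2 rose and 1 fell between baricitinib week 12 and baricitinib week 0: Il33, an alarmin of keratinocytes and stroma, by 1.24 (limma adjusted p = 0.0495), Il1r2, a decoy receptor for interleukin 1, by 1.36 (adjusted p = 0.0337), and Il18rap, a chain of the interleukin 18 receptor, by -1.63 (adjusted p = 0.0298). All 3 calls were lost with a fixed block for the mouse (adjusted p between 0.0927 and 0.103). Il33 and Il1r2 also lost theirs without any 1 array other than baricitinib week 12 replicate 1 and vehicle week 0 replicates 1 and 3 (adjusted p between 0.0524 and 0.194), and Il18rap without baricitinib week 0 replicate 1 or 3, baricitinib week 12 replicate 3 or vehicle week 0 replicate 2 (adjusted p between 0.0549 and 0.129). Il1b, the interleukin released through Gsdmd pores, differed by -1.56 and was not called (adjusted p = 0.0818), and Il18 by 0.25 (adjusted p = 0.742).

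Between baricitinib week 12 and vehicle week 12, 3 of the 13 were lower and 0 higher. These were Il18rap again (-1.63, limma adjusted p = 0.0448) and the keratinocyte cytokines Il36a and Il36b, listed under their older symbols Il1f6 (-2.37, adjusted p = 0.0308) and Il1f8 (-1.68, adjusted p = 0.0262). Il1f6 read 6.12, 4.37 and 6.01 at baricitinib week 12, 7.36, 6.93 and 7.65 at baricitinib week 0, 8.22, 7.82 and 7.56 at vehicle week 12 and 6.77, 6.83 and 6.81 at vehicle week 0. Like Gsdmc2, it was highest at vehicle week 12 and lowest at baricitinib week 12. The calls of Il1f6 were lost without baricitinib week 0 replicate 1, baricitinib week 12 replicate 3, vehicle week 0 replicate 2 or any vehicle week 12 array, those of Il1f8 without baricitinib week 0 replicate 1, baricitinib week 12 replicate 2 or any vehicle week 12 array, and that of Il18rap without any 1 array other than baricitinib week 0 replicate 2 and vehicle week 0 replicate 1 (adjusted p between 0.0508 and 0.188).

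Among genes for the transcription of gasdermins, their lipidation, the repair of their pores and the final rupture of the cell, 8 of 10 were measured. Irf1, an interferon-induced transcription factor, fell by 1.47 between baricitinib week 12 and baricitinib week 0 (limma adjusted p = 0.0456) and Gbp2, a GTPase that helps expose bacterial products to caspase-11, fell by 2.22 (adjusted p = 0.0298). Both calls were lost with a fixed block for the mouse (adjusted p = 0.0815 and 0.0921) and without single arrays, 9 of the 12 for Irf1 (all but baricitinib week 12 replicate 1 and vehicle week 0 replicates 1 and 3) and 6 for Gbp2 (the 3 of baricitinib week 0, baricitinib week 12 replicates 2 and 3 and vehicle week 12 replicate 2), with adjusted p between 0.0559 and 0.183. Irf2, which drives Gsdmd transcription, differed by -0.01 (95% interval -0.57 to 0.56, adjusted p = 0.996), and Ninj1, which carries out rupture of the plasma membrane, by -0.65 (adjusted p = 0.695). None of the 8 was called by limma between baricitinib week 12 and vehicle week 12, where 1 was higher and 2 were lower at an unadjusted p under 0.05.

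Of the 8 genes of type 2 cytokine signalling, which induces Gsdmc genes in the gut, all were measured and 0 were called by limma (3 lower and 0 higher at an unadjusted p under 0.05 against baricitinib week 0, and 1 lower against vehicle week 12), with a median of -0.37 against baricitinib week 0 and -0.36 against vehicle week 12. Il13 differed by -1.73 (95% interval -2.86 to -0.59, limma adjusted p = 0.157) and Il13ra2 by -1.29 (95% interval -2.15 to -0.43, adjusted p = 0.161) between baricitinib week 12 and baricitinib week 0, while Il4 differed by 0.14 (adjusted p = 0.93), Il4ra by -0.52 (adjusted p = 0.733) and the transcription factor Stat6 by -0.22 (adjusted p = 0.821). No gene of the 5 pathway lists was called between vehicle week 12 and vehicle week 0, between baricitinib week 0 and vehicle week 0, or for the difference of the changes.

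**Figure D4:**
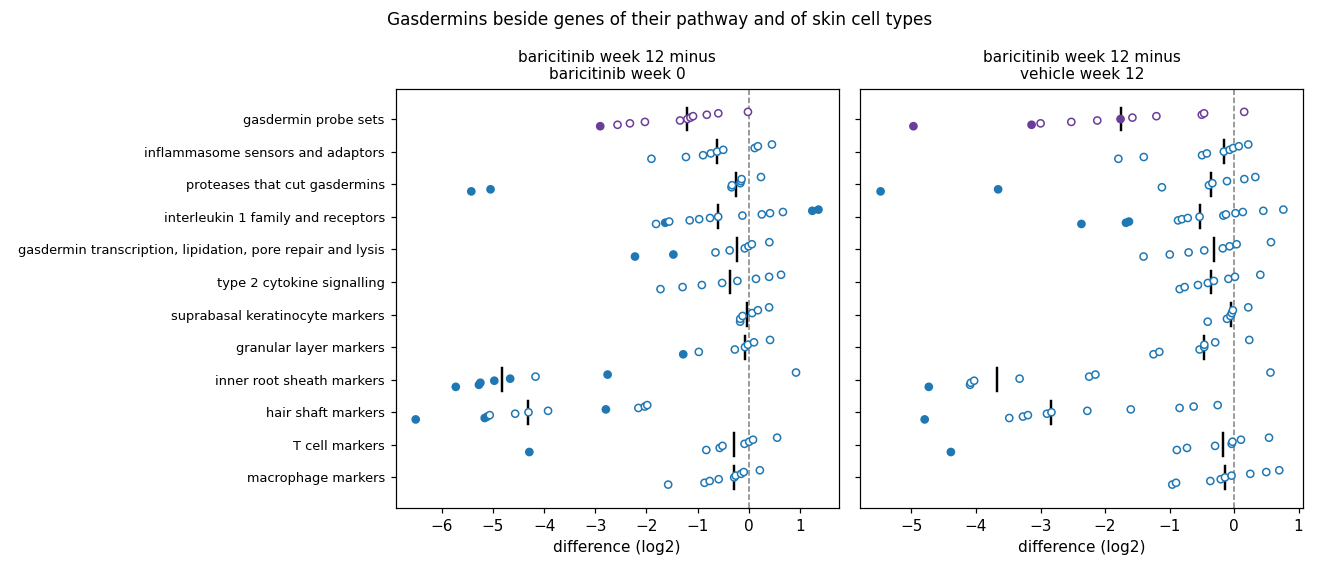
Log2 differences (x axis) of the gasdermin probe sets and of the genes of 5 pathway lists and 6 lists of cell type markers between baricitinib week 12 and baricitinib week 0 (left) and between baricitinib week 12 and vehicle week 12 (right), 1 point a probe set or gene, filled where called, with the median of each list as a black line. Gasdermins have medians of -1.20 and -1.76, the medians of suprabasal keratinocyte markers lie near 0 and those of the hair follicle lists lie lower than those of the gasdermins.

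Markers of parts of the skin moved beside the gasdermins. Of 8 inner root sheath markers, 6 were called lower between baricitinib week 12 and baricitinib week 0, with a list median of -4.82. At an unadjusted limma p under 0.05, 7 were lower and 1, Gata3, was higher. Krt73 fell by 5.73 (limma adjusted p = 0.00128) and kept its call without any 1 array. With a fixed block for the mouse 2 of the 6 calls were kept. The summed level of the list ranged from 11.29 to 12.24 at baricitinib week 12, from 14.84 to 15.32 at baricitinib week 0, from 14.09 to 14.34 at vehicle week 12 and from 12.55 to 15.24 at vehicle week 0. All 11 hair shaft markers were lower at an unadjusted limma p under 0.05, with a median of -4.31. Of these 4 were called, and 1 of the 4 calls was kept with the block. The summed level of that list ranged from 9.86 to 10.52 at baricitinib week 12, from 13.32 to 14.73 at baricitinib week 0, from 11.91 to 12.54 at vehicle week 12 and from 10.64 to 14.58 at vehicle week 0. By summed level both follicle lists were thus lowest in the same group as the gasdermins. Against vehicle week 12 the list medians were -3.68 for the inner root sheath and -2.83 for the hair shaft, with 1 gene of each called lower. The part of the follicle in the gasdermin differences was not tested.

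Markers of the interfollicular epidermis differed less than those of the follicle. None of the 6 suprabasal markers was called, and 0 passed an unadjusted p of 0.05, between baricitinib week 12 and baricitinib week 0, with a median of -0.03, and Krt10 differed by 0.07 (limma adjusted p = 0.962) and Krt1 by -0.17 (adjusted p = 0.883). Of 7 granular layer markers, Casp14, a protease of cornifying keratinocytes, fell by 1.28 (adjusted p = 0.0498, and 0.0918 with a fixed block for the mouse), and the median was -0.07, with 2 of the 7 lower at an unadjusted p under 0.05. The granular median between baricitinib week 12 and vehicle week 12 was -0.46, with 6 of 7 below 0, 2 lower at an unadjusted p under 0.05 and 0 called. The call of Casp14 was lost without any 1 array other than baricitinib week 0 replicate 2 (adjusted p between 0.0514 and 0.198). The summed granular level ranged from 14.49 to 14.80 at baricitinib week 12, from 14.61 to 14.95 at baricitinib week 0, from 15.04 to 15.17 at vehicle week 12 and from 14.66 to 14.86 at vehicle week 0. It was thus highest at vehicle week 12, as Gsdmc2 was. Of 6 basal markers, Krt15, which marks bulge and basal cells, rose by 2.36 (adjusted p = 0.0227) and Itgb4 by 1.44 (adjusted p = 0.0119), with adjusted p between 0.063 and 0.0657 under the block. The call of Krt15 was lost without any 1 array of baricitinib week 0 or without baricitinib week 12 replicate 2 or 3, and that of Itgb4 without baricitinib week 0 replicate 3 or baricitinib week 12 replicate 2 or 3 (adjusted p between 0.0539 and 0.112). The part of these layers in the gasdermin differences was not tested.

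Markers of fat stood opposite to the gasdermins, as did those of sebaceous glands by their summed level. All 6 measured adipocyte markers had a difference above 0 at baricitinib week 12, with a median of 2.16 against baricitinib week 0 and 1.81 against vehicle week 12. Cidec, a lipid droplet protein, rose by 2.76 against baricitinib week 0 (limma adjusted p = 0.0176), a call lost with a fixed block for the mouse (adjusted p = 0.0799) and without baricitinib week 0 replicate 3 or baricitinib week 12 replicate 2 or 3 (adjusted p between 0.0674 and 0.0854), and the other 5 were not called. At an unadjusted p under 0.05, 4 of the 6 were higher against baricitinib week 0 and 5 against vehicle week 12. The summed adipocyte level ranged from 13.65 to 14.07 at baricitinib week 12, from 12.32 to 13.41 at baricitinib week 0, from 12.08 to 13.12 at vehicle week 12 and from 12.43 to 12.98 at vehicle week 0, so that the baricitinib week 12 arrays were above all others. Of 5 measured sebaceous gland markers, 0 were called, with 2 higher against baricitinib week 0 and 3 against vehicle week 12 at an unadjusted p under 0.05. Their median was 0.21 against baricitinib week 0 and 0.66 against vehicle week 12, with 4 genes above 0 and 1 below in each comparison. Their summed level ranged from 13.57 to 13.62 at baricitinib week 12, from 12.99 to 13.37 at baricitinib week 0, from 12.87 to 13.32 at vehicle week 12 and from 12.71 to 13.21 at vehicle week 0, again highest at baricitinib week 12. The part of fat and sebaceous glands in the gasdermin differences was not tested.

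Immune markers were given for Gsdmd, which leukocytes express. Of 8 T cell markers only Cd8a was called between baricitinib week 12 and baricitinib week 0, lower by 4.29 (limma adjusted p = 0.0091). The list median was -0.30, with 5 genes below 0 and 3 above it, and no other gene of the list passed an unadjusted p of 0.05. Of 9 macrophage markers, 0 were called by limma (2 lower at an unadjusted p under 0.05), with a median of -0.29. The summed level of the macrophage list ranged from 12.12 to 13.39 at baricitinib week 12, from 13.36 to 13.65 at baricitinib week 0, from 12.83 to 13.52 at vehicle week 12 and from 13.03 to 13.72 at vehicle week 0. Like that of Gsdmd, this level was spread most widely at baricitinib week 12. Its part in the difference of Gsdmd was not tested.

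Over the 12 arrays and among 18185 genes, the genes whose pattern was most like that of each gasdermin were listed as a description, by Pearson's r. For Gsdma these were Egln3 (0.958), Smox (0.957), 2610528A11Rik (0.952), Sprr2h (0.952) and Homer1 (0.951). For Gsdma2 they were Rflna (0.954), Tent2 (0.945), 5033430I15Rik (0.929), Acp7 (0.920) and Nhlrc2 (0.920), and for Gsdmc2 they were Nipsnap1 (0.944), Rgn (0.944), Fnbp4 (0.940), Tti2 (0.940) and Mycl (0.936). For Gsdmd they were Tmem106a (0.961), Mpeg1 (0.951), Irf8 (0.947), Ccl9 (0.946) and C1qb (0.945), of which Mpeg1, Irf8, Ccl9 and C1qb are genes of macrophages and related myeloid cells. The 12 arrays share 4 groups and, by the pairing read from the labels, 6 mice, so that any genes with the same difference between groups correlate.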

How the data were processed

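RNA of skin biopsies was amplified, labelled and hybridized to Affymetrix mouse expression arrays by the authors, who normalized the topical experiment by RMA (version not given in the sources used here), and the deposited log2 values were used with no further normalization or filter. Probe sets were named from the platform annotation, and 34945 had 1 gene symbol, 932 several and 9160 none. The methods say that 1 baricitinib array at each time failed quality control and was removed before analysis, as was 1 control array at baseline whose experiment is not named. Which ones is not given in the sources used here, and the 12 arrays used here may hold them.

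Of 45101 probe sets, 64 controls were left out. One mean for each of the 4 groups was fitted over 12 arrays with limma 3.58.1 in R 4.3.3 (8 residual and 3.54 prior degrees of freedom), with the Benjamini-Hochberg adjustment over the 45037 probe sets of each comparison and a call at 0.05. Figures were drawn with matplotlib 3.10.9 in Python 3.11.15. The script was tested on simulated data. The number of arrays limits the precision, and the intervals are those of the fit.

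The members, gene lists and tests were chosen with earlier results of these data known. All member probe sets are described. Pathway genes, shown by the probe set with the highest mean, are named where called in any comparison, up to 6 a list, while any other gene named here was picked with its value in view. The 6 pathway lists were other gasdermins, inflammasome sensors and adaptors, gasdermin proteases, the interleukin 1 family, gasdermin transcription to lysis, and type 2 signalling, and 10 further lists held cell type markers. The list not described above was skeletal muscle (7 measured, 0 called in baricitinib week 12 against week 0, where 1 was lower at an unadjusted p under 0.05).

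The labels' descriptions end in a number that recurs at week 12 and week 0 within a treatment, and the methods have 3 mice a treatment, so each pair was read as 1 mouse, which no label states outright. The deviations of paired arrays from their group means correlated at -0.36, -0.51 and 0.47 for baricitinib mice and 0.44, -0.13 and 0.49 for vehicle mice. As alternatives, dim probe sets were filtered out, the prior variance was allowed to follow the level, arrays were centred on their median or put through cyclic loess, and the mouse was entered as a replicate block, fixed or random. Further ones were a fit of only the groups compared, each array left out in turn, the mean of a gene's probe sets, and leaving out the 2 arrays of lowest correlation, which was added after seeing the data.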

Additional observations from a re-analysis of the deposited data

Results flagged for a closer look

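In 7 results every baricitinib mouse went one way and every vehicle mouse the other, with arrays of the same number read as the same mouse. The change with baricitinib minus the change with vehicle was -4.73 for Gsdmc2, -3.72 for the probe set shared by Gsdmc2 and Gsdmc, and -1.88 for that shared by Gsdmc2 and Gsdmc4. It was -2.88 for Il1f6, -1.72 for Il1f8, -1.64 for Casp14 and 2.93 for Krt15. The difference of the changes was fitted for all 45037 probe sets with limma, and none of the 7 was called, with adjusted p between 0.206 and 0.288 for the 4 that are no gasdermins. Krt15 changed by 1.13, 2.69 and 3.26 in the baricitinib mice and by -0.86, -0.19 and -0.67 in the vehicle mice. Casp14 changed by -1.56, -0.83 and -1.46 in the baricitinib mice and by 0.47, 0.41 and 0.19 in the vehicle mice. With 3 arrays a group, single outlying arrays could not be looked for by a rule.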

How the results depend on the processing

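Every difference of a gasdermin probe set stayed within 1 SD of its main value under the alternatives fitted by probe set, and the probe sets called kept their sign. The filter, the prior variance by level, the blocks and the fit of only the groups compared leave an estimate as it is, so only calls could move there. The mean of a gene's probe sets is not in that count. For Gsdma2 this mean, given above, was smaller in size than the difference of its brightest probe set. The count of calls moved more. Between baricitinib week 12 and baricitinib week 0, where 1 of the 11 was called, 2 were called with the filter on dim probe sets (of 9 kept), with a prior variance by level, and without the 2 arrays of lowest correlation (baricitinib week 0 replicate 2 and baricitinib week 12 replicate 1), and 0 to 2 when each array was left out in turn. Between baricitinib week 12 and vehicle week 12, where 3 were called, 5 were called with the filter on dim probe sets and 1 with only the groups compared (Gsdmc2), and 0 to 4 with an array left out, with 0 without vehicle week 12 replicate 1 and 1 without vehicle week 12 replicate 2 or baricitinib week 12 replicate 2. For the difference of the changes the range was 0 to 1, and for the remaining comparisons it was 0 to 0. With a fixed replicate block for the mouse, 1 gasdermin probe set was called between baricitinib week 12 and baricitinib week 0, and 0 between vehicle week 12 and week 0 and for the difference of the changes. Of the pathway and marker genes whose calls are given singly above, all lost them when only the groups compared were fitted (adjusted p between 0.0543 and 0.227) except Gzmb against baricitinib week 0 (0.0261) and Krt73 (0.0261). The random block changed no gasdermin count (1, 3, 0, 0 and 0). Over all probe sets, baricitinib week 12 against week 0 had 557 calls, and again 557 with a prior variance by level. The filter on dim probe sets, which tests fewer of them, gave 733. These calls became 158 with the fixed block, 97 with only the groups compared, 860 without the 2 arrays of lowest correlation and 70 to 1364 with an array left out. The 261 calls against vehicle week 12 became 353 with the filter, 55 with only the groups compared, 1008 without the 2 arrays and 32 to 625 with an array left out. The cause was not tested, except that fewer arrays or probe sets enter some of these fits. Signal over background was not measured, so dim probe sets have no exact fold.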
